A study of Mus musculus with 16 samples.

Results

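Livers with Flpo and livers with Cre were compared directly by RNA sequencing, over all expressed genes. The study has 16 liver libraries from mice kept on a high-fat diet, and the comparison takes 11 of them: the 6 with Flpo in their titles and the 5 with Cre. The series text ties the Cre group to 7a isoforms and the Flpo group to 7b isoforms of the kinases JNK1 and JNK2 in hepatocytes. All 16 libraries, the 5 GFP controls included, are labelled C57/Bl6J with the genotype J1 J2 lf/lf, so the controls carry the conditional alleles too. Cre and Flpo are DNA recombinases, and GFP is a fluorescent protein used as control. Age, sex, weeks of diet, the promoter behind each recombinase and the vector that carried it are not stated in the labels, so a difference between the recombinases themselves cannot be told apart from a difference between the isoforms. Nor do the labels say that each library came from a separate mouse, and the tests therefore weigh differences against a spread between libraries that may in part be technical.

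JNK1 and JNK2 are stress-activated protein kinases that phosphorylate the transcription factor c-Jun, and in obese liver they are known for effects on insulin signalling, fat handling and inflammation. Their genes, Mapk8 and Mapk9, each carry a pair of mutually exclusive exons that encode a short stretch of the kinase domain, and a transcript uses one or the other. Which exon is chosen alters how the kinase recognises its partners. These are the exons by which the groups are named, and they are printed to show how far the alternative forms differ; capitals mark the bases at which the exons of a pair differ. All are shown 5′ to 3′ on the coding strand from GENCODE transcripts on GRCm38. The Mapk8 exons lie on the minus strand of chromosome 14, the first in transcription order at chr14:33390673-33390744 and the second at chr14:33390242-33390313. The Mapk9 exons lie on the plus strand of chromosome 11, at chr11:49873836-49873907 and chr11:49874264-49874335.
Mapk8 first exon: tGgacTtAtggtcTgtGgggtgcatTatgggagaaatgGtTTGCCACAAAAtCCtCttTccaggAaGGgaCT
Mapk8 second exon: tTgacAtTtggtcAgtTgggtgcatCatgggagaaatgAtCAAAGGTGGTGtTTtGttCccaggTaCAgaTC
Mapk9 first exon: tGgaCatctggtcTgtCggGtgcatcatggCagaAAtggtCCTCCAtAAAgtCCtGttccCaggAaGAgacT
Mapk9 second exon: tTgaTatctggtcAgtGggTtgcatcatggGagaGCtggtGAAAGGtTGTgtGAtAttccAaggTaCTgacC
Each exon is 72 bases long. The Mapk8 pair shares 45 of its bases (62.5%) and the Mapk9 pair 47 (65.3%). Across the genes the exons are closer: the first exons of Mapk8 and Mapk9 share 59 bases (81.9%) and the second exons 57 (79.2%). The annotation does not name them 7a and 7b, and a count summed over a gene cannot show which exon a library used.

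The libraries held 27929400 to 36043300 estimated counts, and levels below are CPM, counts scaled to a common library size by TMM. On the first principal component of the 500 most variable genes (33.1% of the variance), Cre libraries lay between 20.3 and 33.2 and Flpo libraries between -20.8 and -3.74. Among the Cre libraries replicate 4 lay nearest to Flpo, and among the Flpo libraries replicate 1 lay nearest to Cre. Each library was also placed against genes called from the others alone. Of the genes called without it, Cre replicate 4 stood nearer the Flpo mean in 49.1%, against 15.7% to 23.5% for the other 4 Cre libraries. Flpo replicate 1 stood nearer the Flpo mean in 65.0% and replicate 2 in 78.1%, against 90.1% to 93.1% for the other 4. Transcripts of the major urinary proteins took 5.65% to 13.8% of the counts in Cre and 1.95% to 6.49% in Flpo. A clock score, the mean z-score of Arntl, Npas2, Clock and Cry1 less that of 8 clock genes of opposite phase (Dbp, Nr1d1, Nr1d2, Per1, Per2, Per3, Tef and Ciart), was 1.66 to 1.96 in 4 Cre libraries, -0.273 in Cre replicate 4 and -1.77 to -0.340 in Flpo. Library numbers in the titles run in blocks by group, and what their order stands for is not stated. The labels give no harvest day or time. Whether these differed between the groups is not known, and such a difference could not be told apart from the group.

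**Figure D1:**
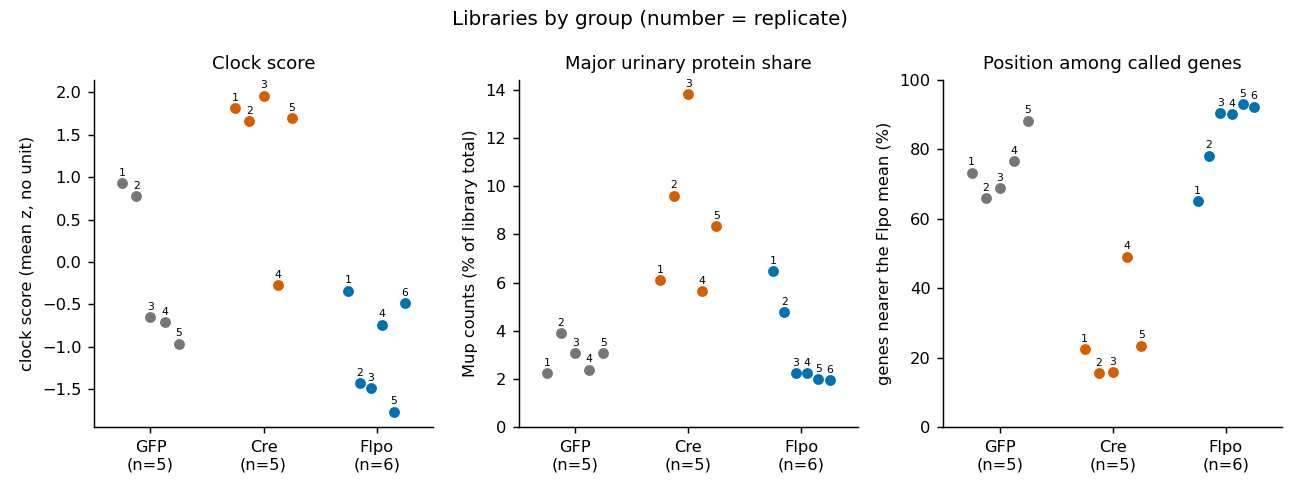
Clock score (left, mean z, no unit), share of counts in major urinary protein genes (middle, % of library total) and share of called genes at which a library lies nearer the Flpo mean (right, %), for each library by group; Cre and Flpo points use genes called without that library, and GFP libraries are not in the contrast. Cre replicate 4 sits apart from the other Cre libraries in the left panel (-0.273) and the right panel (49.1%).

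Neither targeted gene was called at the gene level, Mapk9 close to the threshold. Mapk8, which encodes JNK1, stood at 11.6, 15.1, 11.2, 10.7 and 8.32 CPM in Cre replicates 1 to 5 and at 12.5 to 14.6, median 13.5, in the 6 Flpo libraries (log2 fold change 0.25, SE 0.16, adjusted p = 0.347, where tests and Benjamini-Hochberg adjusted p here and below come from edgeR's quasi-likelihood fit). Mapk9, which encodes JNK2, stood at 29.1, 28.3, 35.2, 41.7 and 31.2 CPM in Cre and at 40.5 to 51.2, median 46.7, in Flpo (log2 fold change 0.48, SE 0.18, adjusted p = 0.0784). For both genes the groups overlapped, Mapk9 only through Cre replicate 4 at 41.7 CPM, which lay above the lowest Flpo library. Mapk9 was called higher in Flpo without Cre replicate 4 (adjusted p = 0.0398), without GFP replicate 1 (0.0468) or 3 (0.0178), with only the Flpo and Cre libraries (0.0156), with library totals (0.0303) and with limma on log2(TPM + 1) (0.0257). Mapk8 was called in none of the alternatives.

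Of 13905 genes tested, 1906 (13.7%) differed between Flpo and Cre at an adjusted p under 0.05 in edgeR's quasi-likelihood test. A total of 1036 genes (7.45%) were higher in Flpo and 870 (6.26%) lower, and the difference was at least 2-fold for 341 and 241 of them. At least 4-fold differences numbered 105 and 84. In 1090 genes (7.84%) no Flpo library overlapped a Cre library, and 989 of these were called. Against the GFP controls, the same fit called 1328 genes (9.55%) in Cre and 4 (0.0288%) in Flpo; those contrasts share libraries with the one reported, so their values are only set side by side for single genes. The balance of calls moved with the scaling. Scaling by library totals led to 1810 higher and 454 lower genes, and limma on log2(TPM + 1) gave 2417 and 326, with the median of all genes at 0.13 and 0.14 on the log2 scale in place of -0.00499. With the clock score as a covariate 32 genes were called, 27 higher and 5 lower. The score and the group divide the libraries in nearly the same way, so a time of day or clock state cannot be told apart from the group in these libraries. The genes named here that were called with that covariate too were Plin4, Lgals1, Ppl, Ctcflos, Pyroxd2, Fam126a, Slc22a27, Lcn2, Anxa5, Cd36, Cryz, Cfd, Cidea and Cd4. No other gene named below as higher or lower was called with it.

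**Figure D2:**
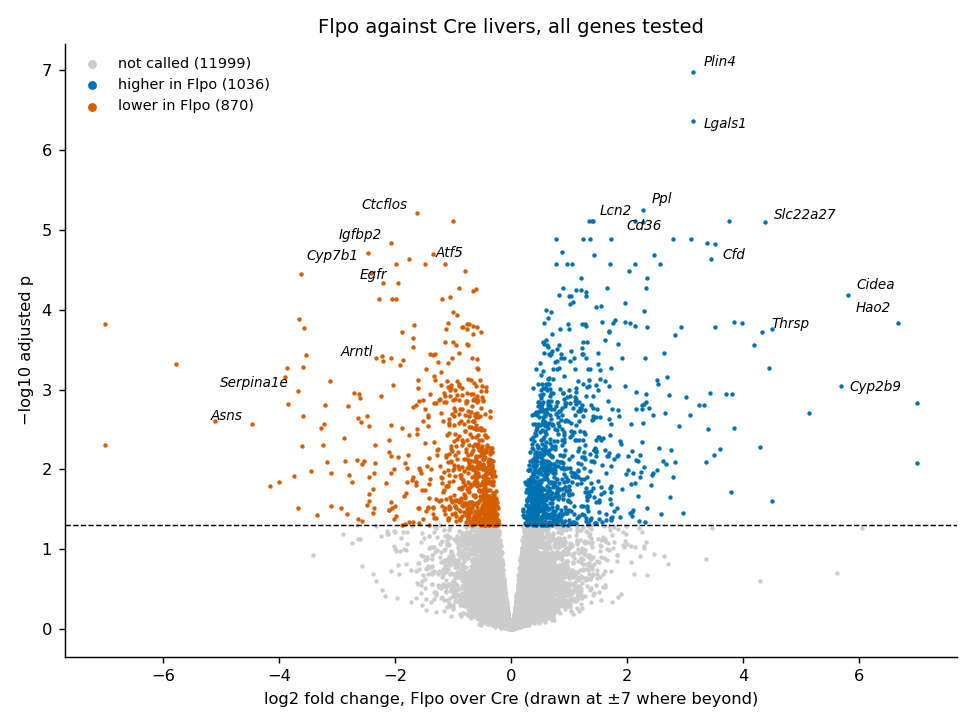
Log2 fold change, Flpo over Cre (horizontal), against -log10 of the adjusted p (vertical) for all 13905 genes tested, from edgeR's quasi-likelihood fit; blue points are the 1036 genes higher in Flpo, orange points the 870 lower, grey points those not called, the dashed line the 0.05 threshold, and folds beyond 7 are drawn at 7. Plin4 and Lgals1 stand highest in the plot.

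The smallest adjusted p belonged to Plin4, which encodes a coat protein of lipid droplets (chromosome 17, 56100591 to 56109803 in GRCm38). Its level was 10.5, 10.3, 6.64, 5.89 and 9.54 CPM in Cre and 59.2 to 92.6, median 72.1, in Flpo, with no overlap (log2 fold change 3.13, SE 0.20, adjusted p = 1.04e-07). Lgals1, the gene of the secreted lectin galectin-1 (chromosome 15, 78926725 to 78930465), was low in every Cre library, at 4.69, 8.15, 6.34, 11.9 and 8.95 CPM, and stood at 43.0 to 95.6, median 68.7, in Flpo (log2 fold change 3.13, SE 0.22, adjusted p = 4.33e-07). Against GFP the log2 fold changes of Plin4 and Lgals1 were -2.56 and -3.15 in Cre and 0.57 and -0.02 in Flpo. Ppl, which encodes the cytolinker periplakin (chromosome 16, 5086291 to 5132421), measured 4.15, 3.88, 1.75, 2.56 and 3.45 CPM in Cre and 10.8 to 18.7, median 15.4, in Flpo (log2 fold change 2.28, SE 0.20, adjusted p = 5.62e-06). Fam126a, which encodes hyccin, a scaffold of a phosphatidylinositol kinase complex (chromosome 5, 23915276 to 24030690), measured 3.25, 3.88, 3.06, 6.38 and 4.24 CPM in Cre and 14.2 to 20.6, median 19.2, in Flpo (log2 fold change 2.15, SE 0.20, adjusted p = 7.63e-06). Pyroxd2, an oxidoreductase gene (chromosome 19, 42725858 to 42752775), was higher in Flpo by 1.40 on the log2 scale (adjusted p = 7.63e-06). Genes named for the smallest adjusted p were taken only from those without overlap. By that choice the groups were apart, and in these 5 genes every Flpo library lay above every Cre library. Ctcflos, a non-coding gene (chromosome 2, 173110818 to 173133204), went the other way. It measured 17.3, 14.6, 19.0, 13.2 and 23.2 CPM in Cre and 4.70 to 6.87, median 5.64, in Flpo (log2 fold change -1.63, SE 0.15, adjusted p = 6.06e-06). Whether the counts hold the strand is not known, so reads of a gene on the opposite strand may be counted with Ctcflos.

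Some genes were close to absent in one of the groups. Cyp2b13, a cytochrome P450 gene of female-biased expression, had 0 counts over the 5 Cre libraries and 1843 over the 6 Flpo libraries, which is at least 453-fold higher in Flpo against a floor of 3 counts over the Cre group. Hao2, a peroxisomal hydroxyacid oxidase gene, had 7 counts in Cre and 1054 in Flpo, a ratio of 111 in CPM with a 95% counting interval of 53.7 to 277. For Slc22a29, a transporter gene, the ratio was 22.6 (14.2 to 38.4), and 62.2 without Cre replicate 4. The Cyp2b13 bound was 282-fold without Flpo replicate 4, and its call was lost with limma-voom (adjusted p = 0.170). Moxd1, a monooxygenase gene of male-biased expression, ran the other way: it had 0 counts in the 6 Flpo libraries and 2319 in Cre, at least 1049-fold lower in Flpo against the same floor over the Flpo group. Its Cre libraries were spread widely, at 12.7, 3.02, 65.5, 0.361 and 4.39 CPM, and without Cre replicate 3 the bound was 315-fold. Its call was lost without GFP replicate 5 (adjusted p = 0.0599), with only the Flpo and Cre libraries (0.0620) and with limma-voom (0.110). The unnamed gene model 3930402G23Rik was higher in Cre by a ratio of 52.5 (35 to 82.3), which was 29.2 without Cre replicate 5 and 102 without Flpo replicate 1. Cspg5, a proteoglycan gene, was at 1.88 to 3.32 CPM in Cre and 0.0309 to 0.481 in Flpo. Dnaic1, a gene of ciliary dynein, was at 2.14 to 10.2 and 0 to 0.990. Both were lower in every Flpo library, but genes named for the largest differences were taken only from those without overlap. The log2 fold change of Dnaic1 was -3.85, and -4.49 without Flpo replicate 4. Tff3, a trefoil peptide gene, was lower in Flpo at a log2 fold change of -3.74, of -4.33 without Flpo replicate 2, and of -2.21 without Cre replicate 1, which was at 77.9 CPM while the other Cre libraries reached no more than 11. The intervals given here cover counting error only.

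**Figure D3:**
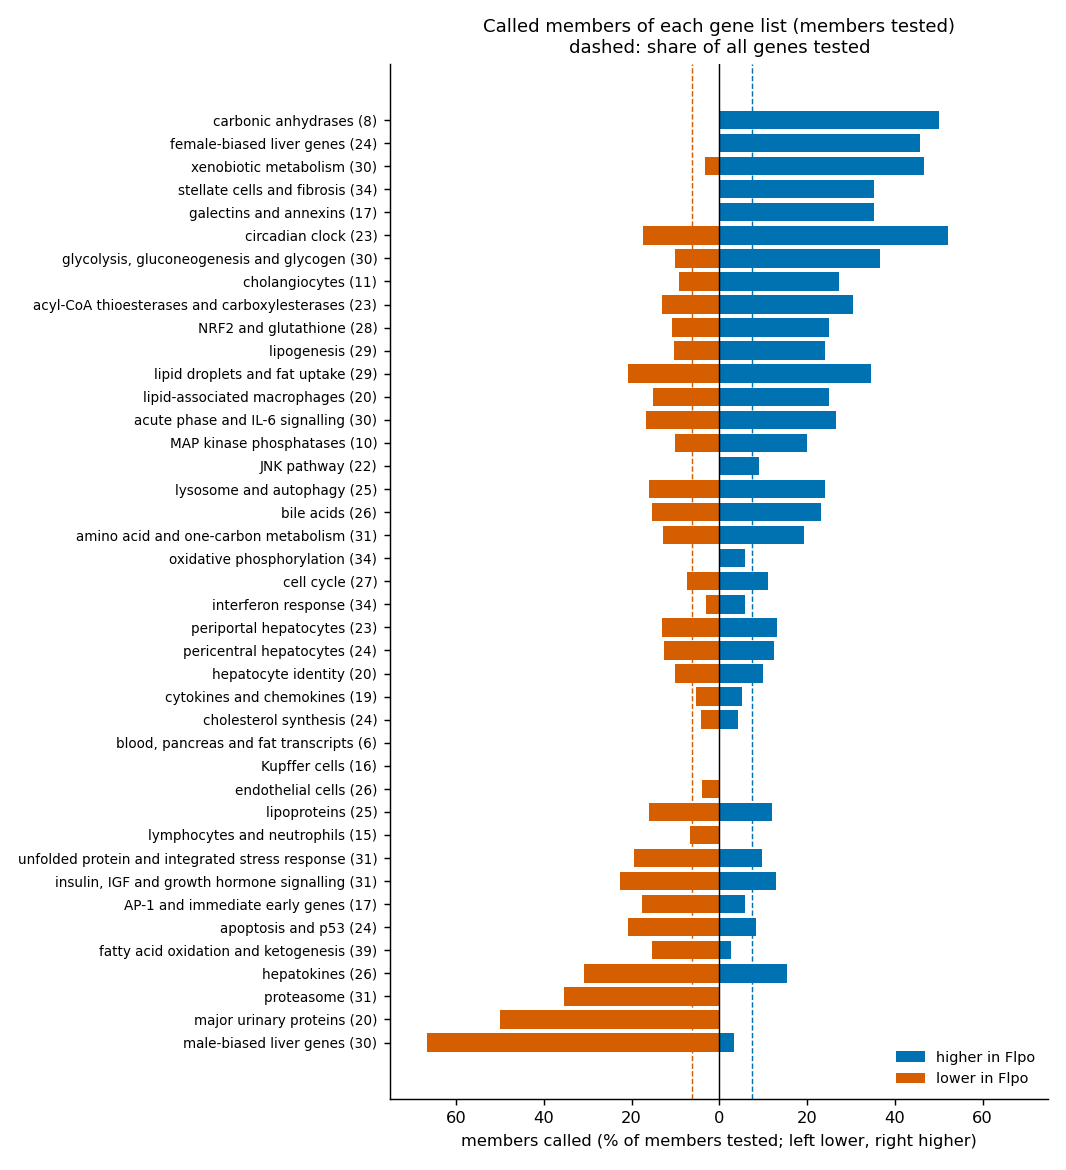
Share of tested members called higher (right, blue) or lower (left, orange) in Flpo for each of 41 gene lists, with the number of members tested in brackets; dashed lines mark the same shares over all genes tested (7.45% and 6.26%). Male-biased liver genes reach farthest to the left and the circadian clock farthest to the right.

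Genes were then grouped by lists of pathways and cell type markers. A list is described by how many of its tested members were called in each direction and by its median log2 fold change, beside 7.45% called higher, 6.26% called lower and a median of -0.00499 over all genes. The genes Plin2, Cidec, Mogat1, Scd1, Foxo1, Igfbp1, Socs2, Pdk4, Got1, Hsd3b5, Cyp2b10, Cyp2c39, Dbp, Ciart, Usp2, Wee1, Hlf, Nr1d1, Clock, Npas2, Per1, Gsta3, Nqo1, Il6ra, Fst, Herpud1, Fitm1, Dgat2, Pnpla2, Fads2, Acot1, Acot11, Ppp1r3b, Pfkfb3, Ghr, Nat8f5, Nfil3, Saa2, Socs3, Fga, Fgg, Atf4 and Dnajb9 were chosen after their values were seen. Sizes after "higher by", and values in parentheses marked log2, are log2 fold changes of Flpo over Cre. Beside the losses given with single genes, calls were lost with library totals for Clock and Dusp5, without a low-count filter for Scd1, Pck1, Ier2, Dusp5, Cyp7a1, Itch, Per1 and Map3k4, and with limma-voom for Cyp2b10, Got1, Igfbp1 and Map3k4. On the log2(TPM + 1) scale they were lost for Sqstm1, Kdr, Lpl, Got1, Clock, Igfbp1, Pck1, Ier2 and Dusp5, with only the Flpo and Cre libraries for Igfbp1, Itch and Map3k4, and with the replicate block for Got1, Socs2, Cyp7a1 and Dusp16. The genes chosen later from Fitm1 to Dnajb9 were not followed singly through the alternatives. Their lists show that none was called with the clock score, and other losses of their calls are not known. List counts of 3 or fewer moved by up to 3 members when 1 library was left out.

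Genes of the JNK pathway itself, from upstream kinases to scaffolds, were called in 2 of 22 tested (median 0.02). Map3k4, an upstream kinase gene, and Itch, a ubiquitin ligase gene regulated by JNK, were higher by 0.44 and 0.33. Map3k4 lost its call in 12 and Itch in 8 of the 16 fits that left out a library, with the highest adjusted p, 0.114 and 0.0941, without Flpo replicate 2 and Flpo replicate 4. Of 10 tested genes of MAP kinase phosphatases, which switch off MAP kinases of several kinds and not JNK alone, 2 were higher and 1 lower. Dusp1 was higher (14.4, 10.9, 6.15, 10.9 and 11.1 CPM in Cre and 14.5 to 27.3, median 18.5, in Flpo, log2 fold change 0.87, SE 0.21, adjusted p = 0.00952), as was Dusp16 (log2 0.46), and Dusp5 was lower (log2 -0.97). Dusp16 lost its call in 7 and Dusp5 in 4 of the fits without 1 library, at adjusted p up to 0.0918 without Cre replicate 3 and 0.0866 without Cre replicate 5.

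AP-1 and immediate early genes, among which AP-1 factors are substrates of the JNK kinases, had 1 member higher and 3 lower of 17 (median -0.29), and 5 lower without Cre replicate 4. Egr1 stood at 102, 23.7, 9.85, 21.0 and 31.0 CPM in Cre, highest in replicate 1, and 3.37 to 8.58, median 6.16, in Flpo (log2 fold change -2.59, SE 0.49, adjusted p = 0.00254); without Cre replicate 1 the log2 fold change was -1.78 (adjusted p = 0.00196). Junb measured 97.9, 42.9, 20.7, 29.9 and 39.3 CPM in Cre and 13.4 to 18.8, median 14.9, in Flpo (log2 fold change -1.57, SE 0.37, adjusted p = 0.0101), so that both genes were lower in Flpo without overlap. Ier2 was lower at a log2 fold change of -0.93, but its adjusted p was 0.0507 without Flpo replicate 4 and 0.0787 without Cre replicate 1, with a log2 fold change of -0.62 in the latter fit. Jun, which encodes the substrate after which the kinases are named, did not pass (15.7 to 40.5 CPM in Cre, 16.8 to 50.7 in Flpo, log2 fold change 0.20, SE 0.30, adjusted p = 0.71).

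Genes of lipid droplets and fat uptake were called in both directions: 10 of 29 tested members were higher in Flpo and 6 lower, with a median of 0.10. On the log2(TPM + 1) scale there were 11 higher and 2 lower with a median of 0.35. Besides Plin4, the higher members included Cidea, which encodes a protein that promotes droplet fusion, Cd36, a fatty acid transporter, Pparg, which encodes a nuclear receptor of the fat storage programme, and Mogat1, an acyltransferase of triglyceride synthesis. Cidea stood at 0.179, 1.08, 0.261, 0.632 and 0.392 CPM in Cre and at 5.14 to 64.9, median 26.1, in Flpo (log2 fold change 5.81, SE 0.66, adjusted p = 6.49e-05). Cd36 measured 23.2, 33.1, 19.3, 65.9 and 28.2 CPM in Cre, highest in replicate 4, and 189 to 271, median 247, in Flpo (log2 fold change 2.79, SE 0.27, adjusted p = 1.28e-05). Pparg measured 5.33, 8.73, 7.61, 7.73 and 6.67 CPM in Cre and 12.8 to 22.8, median 17.7, in Flpo (log2 fold change 1.30, SE 0.18, adjusted p = 1.59e-04). In each of the 3 the groups were fully apart, and in GFP Cidea ranged from 7.10 to 15.3 CPM, Cd36 from 153 to 286 and Pparg from 13.4 to 24.1. Mogat1 was higher by 2.92 on the log2 scale and Cfd, which encodes the adipose-enriched complement factor D, by 3.45 (0.785 to 2.02 CPM in Cre and 7.31 to 25.4 in Flpo). Vldlr, the very low density lipoprotein receptor gene, Fitm1, a droplet assembly gene, and the acyltransferase gene Dgat2 were higher by 2.69, 1.54 and 0.77.

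Plin2, which encodes a widely expressed droplet coat protein, was among the members lower in Flpo. It stood at 876, 1699, 1295, 1271 and 1910.3 CPM in Cre and 561 to 959, median 700.3, in Flpo (log2 fold change -0.98, SE 0.18, adjusted p = 0.00168), with overlap through Cre replicate 1 and Flpo replicate 1. Fabp5, a fatty acid carrier gene, was lower (log2 -2.34), Lpl, the lipoprotein lipase gene, (log2 -1.01) and Pnpla2, the triglyceride lipase gene, (log2 -0.62). Thus the coat genes Plin4 and Plin2 were called in opposite directions. Cidec, a relative of Cidea, did not pass the test (log2 fold change 0.10, SE 0.73, adjusted p = 0.951): it measured 16.3, 19.9, 9.88, 20.4 and 289 CPM in Cre and 59.9 to 98.0, median 74.6, in Flpo, so that 4 Cre libraries lay under every Flpo library and replicate 5 above all of them. Without Cre replicate 5 Cidec was called, at a log2 fold change of 2.20 (adjusted p = 5.95e-05).

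**Figure D4:**
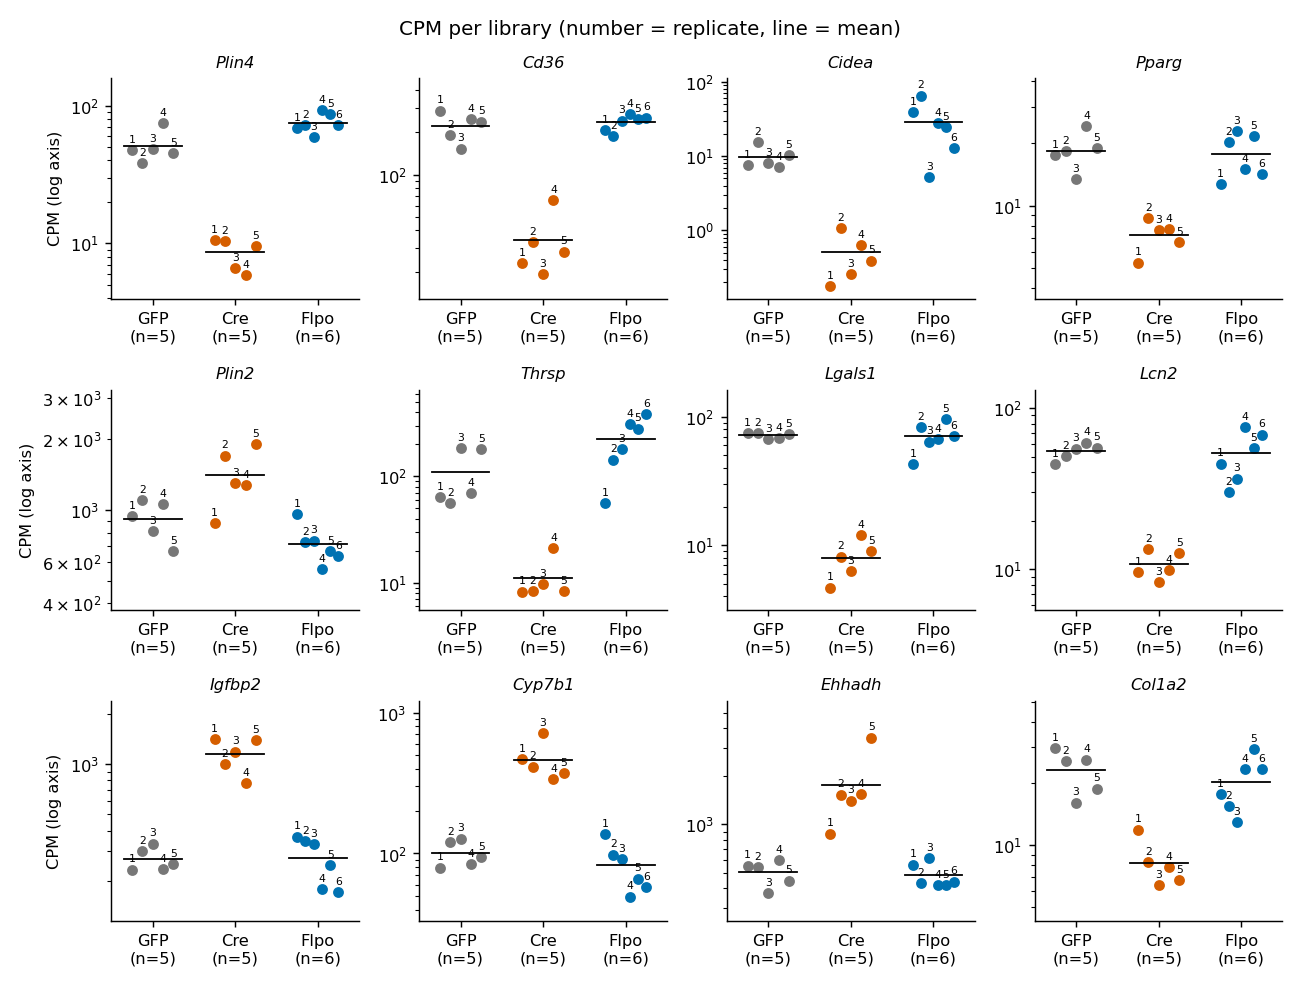
CPM in every library (vertical log axis) for 12 genes by group, with the replicate number at each point and a line at the group mean. Cre libraries lie under all Flpo libraries for Plin4, Cd36, Cidea, Pparg, Thrsp, Lgals1 and Lcn2 and above them for Igfbp2, Cyp7b1 and Ehhadh, while Plin2 and Col1a2 are called with narrower gaps or overlap.

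Of 29 lipogenesis genes tested, 7 were higher in Flpo and 3 lower (median 0.27). Thrsp, which encodes the lipogenic regulator Spot14, had the largest difference, at 8.26, 8.40, 9.66, 21.1 and 8.32 CPM in Cre and 55.7 to 385, median 231, in Flpo (log2 fold change 4.33, SE 0.56, adjusted p = 1.88e-04). Pklr, the liver pyruvate kinase gene, stood at 40.0, 86.6, 78.7, 112 and 58.3 CPM in Cre and 115 to 291, median 212, in Flpo (log2 fold change 1.49, SE 0.25, adjusted p = 0.00101). Flpo libraries were higher than all Cre libraries for both genes, and Cre replicate 4 was the highest Cre library in each. Scd1, the stearoyl-CoA desaturase gene, was higher by 1.71 (SE 0.46, adjusted p = 0.0237), but the groups overlapped and the call was lost without Cre replicate 2 (0.0589), Cre replicate 3 (0.0600) or Flpo replicate 6 (0.0523). Lower in Flpo were Elovl5, a fatty acid elongase gene (log2 -1.13), Fads2, a desaturase gene (log2 -0.60), and Insig2, which encodes a sterol-sensing brake on lipid synthesis (log2 -1.33). Fasn, the fatty acid synthase gene, did not pass (65.6 to 237 CPM in Cre and 115 to 162 in Flpo, log2 fold change -0.15, SE 0.24, adjusted p = 0.743).

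Fatty acid oxidation and ketogenesis had 1 member higher and 6 lower of 39 tested (median -0.12), and 10 lower without Cre replicate 1. With libraries scaled by their totals the list had 3 higher and 4 lower with a median of 0.01 and on the log2(TPM + 1) scale 9 higher and 4 lower with a median of 0.09. Ehhadh, an enzyme gene of peroxisomal beta-oxidation, measured 875, 1533, 1411, 1544 and 3485 CPM in Cre and 416 to 618, median 435, in Flpo, with no overlap (log2 fold change -1.88, SE 0.26, adjusted p = 1.88e-04). Cyp4a31, an omega-hydroxylase gene, was lower (log2 -2.04), Pdk4, which encodes a kinase that holds back pyruvate oxidation, (log2 -1.58), and Acot1, a cytosolic thioesterase gene, (log2 -1.07). Fgf21, the gene of a fasting-induced liver hormone, stood at 50.9, 36.4, 9.10, 17.0 and 60.2 CPM in Cre and 5.69 to 13.2, median 7.32, in Flpo (log2 fold change -2.11, SE 0.43, adjusted p = 0.00425), with overlap through Cre replicate 3. Hadh, a mitochondrial beta-oxidation gene, was the higher member (log2 0.65), and Ppara, the nuclear receptor gene that governs this pathway, did not pass (log2 fold change -0.18, SE 0.17, adjusted p = 0.538).

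Of the glycolysis, gluconeogenesis and glycogen genes 11 of 30 were higher in Flpo and 3 lower (median 0.42). Slc2a2, the gene of the hepatocyte glucose transporter, stood at 107, 169, 149, 277 and 135 CPM in Cre and 307 to 381, median 325, in Flpo (log2 fold change 1.01, SE 0.17, adjusted p = 0.00102), with the groups apart. Pcx, the pyruvate carboxylase gene, was higher by 0.55, Ppp1r3b, which encodes a glycogen-targeting phosphatase subunit, by 1.41 and Pfkfb3 by 1.51. Ldha, the lactate dehydrogenase A gene, was lower, at 2247, 2213, 1582, 1690.3 and 2570.2 CPM in Cre and 857 to 1326, median 941, in Flpo (log2 fold change -1.05, SE 0.13, adjusted p = 6.82e-05). Pck1, a key enzyme gene of gluconeogenesis, stood at 4534, 3119, 3142, 2491 and 3767 CPM in Cre and 1327 to 2445, median 1926, in Flpo, with no overlap (log2 fold change -0.86, SE 0.24, adjusted p = 0.0241), and its call was lost without Cre replicate 1 (adjusted p = 0.0652) or Cre replicate 5 (0.0507).

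Among insulin, IGF and growth hormone signalling genes, 4 of 31 were higher in Flpo and 7 lower (median 0.04), against 5 and 5 on the log2(TPM + 1) scale. Igfbp2, which encodes a circulating IGF binding protein, measured 1414, 1001, 1190.1, 766 and 1397 CPM in Cre and 171 to 368, median 289.7, in Flpo (log2 fold change -2.08, SE 0.21, adjusted p = 1.45e-05). Irs2, an insulin receptor substrate gene, measured 38.4, 20.7, 22.5, 28 and 38.5 CPM in Cre and 5.90 to 12.7, median 9.72, in Flpo (log2 fold change -1.61, SE 0.27, adjusted p = 9.52e-04). Pik3r1, the gene of a regulatory subunit of phosphoinositide 3-kinase, ran the other way, at 28.7, 38.7, 48.0, 65.4 and 32.5 CPM in Cre and 83.4 to 144, median 104, in Flpo (log2 fold change 1.36, SE 0.22, adjusted p = 5.52e-04). None of the 3 overlapped between the groups. Grb14, an inhibitory adaptor gene of the insulin receptor, was lower in Flpo (log2 -0.66), Socs2, a feedback inhibitor gene of growth hormone signalling, (log2 -1.64) and Igfbp1 (log2 -2.39), while the growth hormone receptor gene Ghr was higher by 0.52 and Foxo1 by 0.73. Igfbp1 depended on Cre replicate 5: without it the log2 fold change was -1.58 and the adjusted p 0.0647.

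The male-biased list held the largest share of called members. In mice, pulses of growth hormone set many liver genes at different levels in males and females. Of 30 male-biased genes tested 20 were lower in Flpo and 1, Nat8f5, was higher, with a median of -1.47. Of 24 female-biased genes 11 were higher and none lower (median 1.05). Sex is not given by the labels, but every library held 0 to 2.99 estimated counts of Xist, the RNA of the inactive X chromosome, and 1216 to 2567 of the Y-linked gene Ddx3y. Cyp7b1, an oxysterol hydroxylase gene, stood at 465, 414, 715, 338 and 372 CPM in Cre and 49.4 to 137, median 78.5, in Flpo (log2 fold change -2.47, SE 0.25, adjusted p = 1.92e-05). Elovl3, an elongase gene, measured 417, 360.1, 488, 255 and 380.4 CPM in Cre and 62.3 to 163, median 79.0, in Flpo (log2 fold change -1.99, SE 0.24, adjusted p = 7.34e-05), and Egfr, the epidermal growth factor receptor gene, 597, 453, 577, 255 and 491 CPM in Cre and 95.4 to 166, median 116, in Flpo (log2 fold change -1.98, SE 0.22, adjusted p = 2.67e-05). In all 3 the groups were apart, with Cre replicate 4 the lowest Cre library. Hsd3b5, a steroid dehydrogenase gene, measured 73.0, 112, 178, 84.6 and 9.42 CPM in Cre and 18.2 and 9.96 in Flpo replicates 1 and 2, but no more than 0.743 in the other 4 (log2 fold change -4.17, SE 1.03, adjusted p = 0.0161). Without Flpo replicate 1 its log2 fold change was -5.27.

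Among the female-biased genes Slc22a27, a transporter gene, stood at 0.143, 0.646, 0.112, 0.662 and 0.157 CPM in Cre and 4.45 to 12.5, median 7.15, in Flpo (log2 fold change 4.38, SE 0.42, adjusted p = 7.99e-06). Cyp2b9, a cytochrome P450 gene, measured 0.107, 7.25, 1.45, 12.8 and 1.37 CPM in Cre and 47.5 to 362, median 261, in Flpo (log2 fold change 5.68, SE 0.88, adjusted p = 8.89e-04), its lowest Flpo value in replicate 2, and the log2 fold change was 6.55 without Cre replicate 4. Sult2a7, a sulfotransferase gene, was higher by 1.91 and Cyp2b10 by 2.68. The Slc22a27 level in GFP was 8.19 to 14.5 CPM, with Cre at -4.93 and Flpo at -0.55 against it on the log2 scale. Cyp7b1 had the corresponding values 2.19 and -0.28, and Egfr 2.30 and 0.32.

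The major urinary proteins, abundant pheromone carriers made by male liver, were called lower in 10 of 20 tested genes and higher in none (median -1.37), and lower in 16 without Flpo replicate 1. Their summed level was 57278 to 153980.0 CPM in Cre and 18952 to 63472 in Flpo. Flpo replicate 1 lay highest in its group. Mup3 measured 5639, 8026, 9921, 5979.8 and 5730.1 CPM in Cre and 2538 to 5599, median 3297, in Flpo (log2 fold change -0.91, SE 0.20, adjusted p = 0.00612), and Mup8 was lower (log2 -2.35). Reads of these near-identical genes may have been split between copies, so single Mup genes are uncertain, as is Serpina1e, one of a family of near-identical inhibitor genes (5143 to 16137 CPM in Cre and 233 to 1773 in Flpo, log2 fold change -3.67, SE 0.59, adjusted p = 0.00104).

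Circadian clock genes had 16 of 23 tested members called, 12 higher in Flpo and 4 lower (median 0.67). The clock is a loop in which Arntl and Clock drive the Per and Cry repressors and the output factors Dbp, Tef and Hlf, so its genes peak at different times of day. Arntl measured 14.1, 7.40, 6.42, 3.04 and 11.1 CPM in Cre and 1.0 to 2.26, median 1.98, in Flpo (log2 fold change -2.22, SE 0.34, adjusted p = 3.76e-04). Per3 measured 1.75, 2.48, 2.72, 8.15 and 2.12 CPM in Cre and 11.5 to 24.4, median 21.0, in Flpo (log2 fold change 2.53, SE 0.41, adjusted p = 8.58e-04), and Ciart, a repressor gene of the loop, 1.04, 0.180, 0.261, 2.05 and 2.43 CPM in Cre and 7.03 to 19.8, median 17.4, in Flpo (log2 fold change 3.71, SE 0.62, adjusted p = 0.00114). No library of Arntl, Per3 or Ciart overlapped the other group, but Cre replicate 4 was the Cre library nearest to Flpo for Arntl and Per3. Dbp stood at 29.4, 33.1, 37.6, 86.4 and 15.5 CPM in Cre, where replicate 4 lay just under the lowest Flpo library, and at 87.8 to 138, median 112, in Flpo (log2 fold change 1.47, SE 0.32, adjusted p = 0.00595). The repressor gene Nr1d1 was lower (log2 -1.23) and Clock (log2 -0.61), and Nfil3 (log2 -0.97), while Tef was higher by 1.24, Hlf by 0.76, Usp2 by 3.25 and Wee1 by 2.30. Without Cre replicate 4 the log2 fold changes of Per3, Usp2 and Wee1 were 3.15, 3.93 and 3.07. Npas2, a partner of Arntl, did not pass (log2 fold change -1.96, SE 0.87, adjusted p = 0.158).

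Per1 was higher by 1.23 (adjusted p = 0.0362) and lost its call in 7 of the fits that left out a library, among them those without Cre replicate 2 (0.0830) and Cre replicate 3 (0.0882). Of the 15 clock genes called without Cre replicate 4, that library stood nearer the Flpo mean in 9. Each other Cre library, placed in the same way, did so for 0 or 1 of the clock genes called without it. In the GFP libraries the clock score ran from -0.964 to 0.933. The genes of the clock score are themselves members of this list, so its covariate is no independent measure for them. Nr1d1 and Cry1 ran against their side of the score, at log2 fold changes of -1.23 and 0.28. Cry1 was not called in edgeR's fit (adjusted p = 0.489). The other members ran with their side, Per2 and Npas2 without a call.

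**Figure D5:**
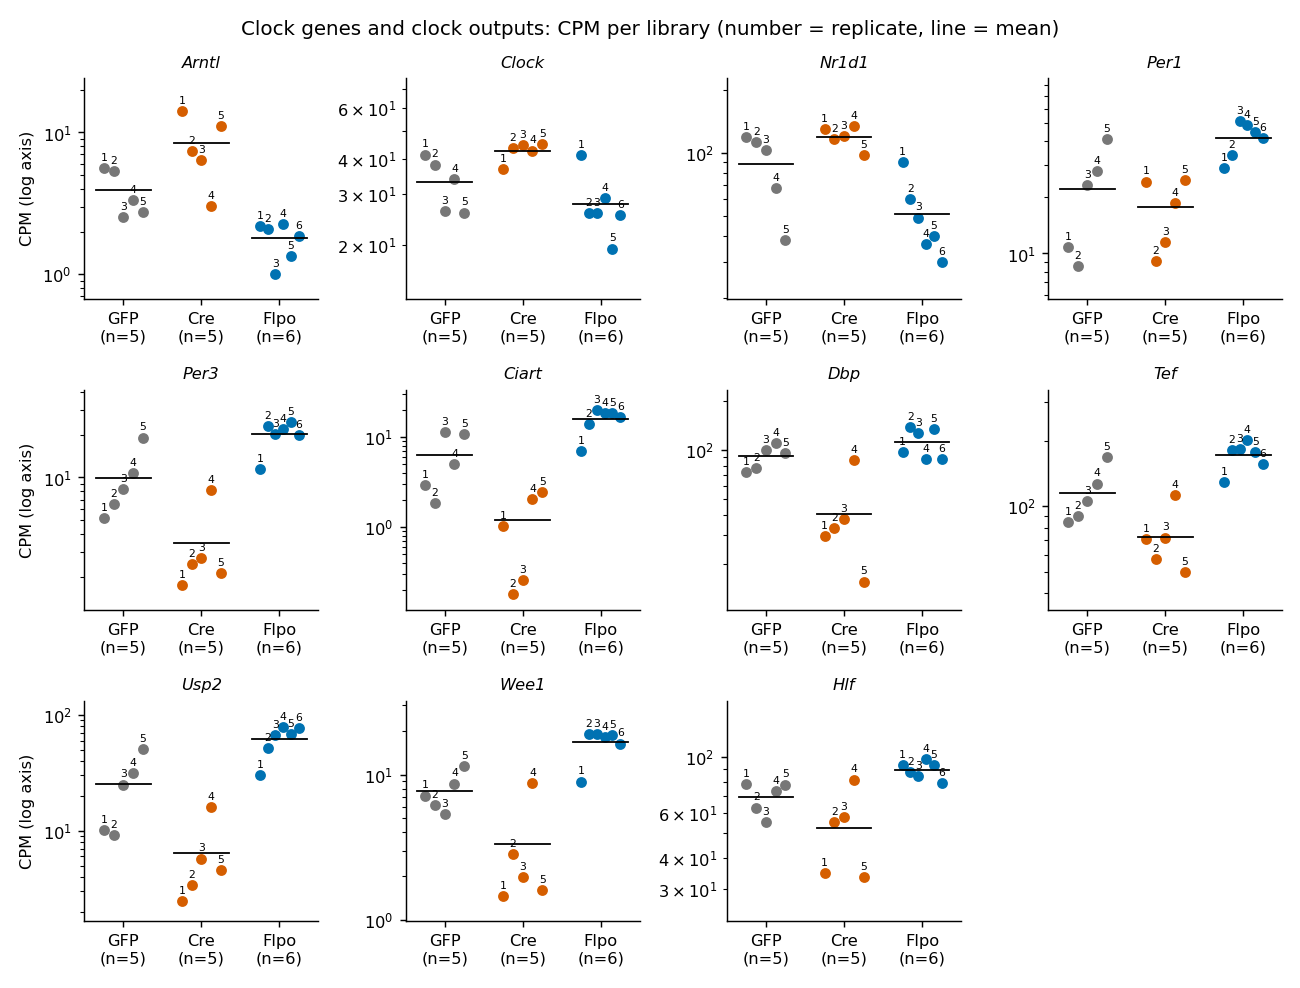
CPM in every library (vertical log axis) of 11 clock genes and clock outputs by group, with replicate numbers and group means. Flpo libraries lie above all Cre libraries for Per1, Per3, Ciart, Dbp, Tef, Usp2 and Wee1 and under them for Arntl and Nr1d1; Cre replicate 4 lies just under the Flpo range for Dbp and Wee1 and inside it for Hlf.

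The Arntl and Clock dimer binds an E-box, and the windows from 250 bases before to 50 after each RefSeq transcription start (GRCm38.p6) were searched for its letters CACGTG, which read the same on both strands. By symbol, 18 clock genes had a window, and 5 of them (27.8%) held the motif, against 8.09% of 27025 genes. Of the 13 called genes with a window it was in 3: Per1, Tef and Ciart. The windows of Per1 (chr11:69098699-69098998, plus strand) and Ciart (chr3:95882179-95882478, minus strand) are printed as examples with 1 and with the most motifs, with CACGTG in capitals.
Per1 window: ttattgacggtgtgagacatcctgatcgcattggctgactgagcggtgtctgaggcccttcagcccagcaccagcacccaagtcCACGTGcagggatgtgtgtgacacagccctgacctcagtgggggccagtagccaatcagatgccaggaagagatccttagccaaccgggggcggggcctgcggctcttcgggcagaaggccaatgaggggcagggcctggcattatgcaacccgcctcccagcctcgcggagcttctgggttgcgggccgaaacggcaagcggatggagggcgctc
Ciart window: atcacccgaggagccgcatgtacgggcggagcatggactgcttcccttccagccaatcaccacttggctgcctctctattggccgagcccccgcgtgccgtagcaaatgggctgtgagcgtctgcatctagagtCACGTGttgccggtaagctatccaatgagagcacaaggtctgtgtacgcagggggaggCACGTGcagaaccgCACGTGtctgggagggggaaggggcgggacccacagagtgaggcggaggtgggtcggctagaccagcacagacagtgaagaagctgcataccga
Per1 holds 1 motif, 166 bases before the start, and Ciart holds 3, at 116, 58 and 44 bases before it. A match describes the letters of a window and does not show binding, and a window without one says nothing of sites elsewhere.

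Xenobiotic metabolism genes were called higher in 14 of 30 tested and lower in 1 (median 0.43). Cyp2a22 stood at 0.536, 1.54, 0.485, 4.15 and 1.49 CPM in Cre and 10.4 to 53.4, median 46.1, in Flpo (log2 fold change 4.45, SE 0.65, adjusted p = 5.29e-04), with a log2 fold change of 5.18 without Cre replicate 4. Aldh1a1, a retinaldehyde dehydrogenase gene, measured 610.4, 1346, 1260.2, 1716 and 779.7 CPM in Cre and 2286 to 2804, median 2394, in Flpo (log2 fold change 1.10, SE 0.21, adjusted p = 0.00206), and Fmo5, a flavin monooxygenase gene, 413, 376, 373, 525 and 539 CPM in Cre and 667 to 1263, median 799, in Flpo (log2 fold change 1.02, SE 0.18, adjusted p = 0.00122). All 3 were without overlap. Nr1i3, the gene of the drug-sensing receptor CAR, was higher by 0.80 (adjusted p = 0.0183), and with the clock score as covariate its log2 fold change was -0.07 (adjusted p = 0.971). The cytochrome P450 gene Cyp2c39 was higher by 1.72 and the carboxylesterase gene Ces1d by 1.27.

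In the NRF2 and glutathione list 7 of 28 were higher and 3 lower (median 0.09). Members of the glutathione transferase family were called in both directions: Gstt3 stood at 19.1, 13.2, 9.88, 23.4 and 21.2 CPM in Cre and 35.8 to 67.7, median 56.1, in Flpo (log2 fold change 1.62, SE 0.23, adjusted p = 2.40e-04), and Gstp1, which is male-biased, at 2794, 1541, 2542, 739 and 2076 CPM in Cre and 383 to 678, median 419, in Flpo (log2 fold change -2.05, SE 0.25, adjusted p = 7.35e-05). Gsta1 (log2 3.85) and Gsta3 (log2 1.23) were higher but belong to a family of near-identical genes. Nqo1, a classic NRF2 target, was higher by 1.04 and Gsr, the glutathione reductase gene, lower (log2 -0.53).

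Bile acid genes were called in both directions, 6 of 26 higher in Flpo and 4 lower (median -0.14), with 9 higher and 2 lower with a median of 0.09 on the log2(TPM + 1) scale. Akr1d1, a bile acid synthesis gene, stood at 85.6, 69.4, 71.5, 141 and 46.6 CPM in Cre and 162 to 214, median 198, in Flpo (log2 fold change 1.22, SE 0.22, adjusted p = 0.00155), and Abcc3, a basolateral efflux pump gene, at 136, 256, 234, 283 and 132 CPM in Cre and 343 to 452, median 421, in Flpo (log2 fold change 0.96, SE 0.17, adjusted p = 0.00123). Both were without overlap. Cyp7a1, the rate-limiting enzyme of the classic pathway, was higher by 0.95 with overlapping groups (59.9 to 163 CPM in Cre, 136 to 258 in Flpo, adjusted p = 0.0335), and lost its call in 8 of the fits that left out a library, with the highest adjusted p, 0.0809, without Cre replicate 5. Cyp7b1 of the alternative pathway was lower, as given above.

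Stellate cell and fibrosis genes were called higher in 12 of 34 tested and lower in none (median 0.45). In whole liver, fewer cells of a type and less RNA per cell cannot be told apart. Col1a2, a fibrillar collagen gene, stood at 11.9, 8.30, 6.38, 7.79 and 6.75 CPM in Cre and 12.9 to 29.4, median 20.5, in Flpo (log2 fold change 1.31, SE 0.22, adjusted p = 9.23e-04). Col3a1 measured 18.3, 10.6, 6.01, 11.1 and 4.20 CPM in Cre and 16.5 to 51.6, median 38.2, in Flpo, with overlap through Cre replicate 1 (log2 fold change 1.87, SE 0.35, adjusted p = 0.00215). Lrat, a gene of retinol storage in stellate cells, was higher by 0.83 and without overlap, Col1a1 by 1.59 and Col6a3 by 1.39. The groups were apart in only 2 of the 34 members, beside 7.84% of all genes. Of the 34, 28 lay above 0 and 22 were not called. All members below 0 are given here, outside the naming rule. Acta2 (log2 -0.42), Tagln (log2 -0.01), Des (log2 -0.10), Pdgfra (log2 -0.13), Lox (log2 -0.60) and Tgfb1 (log2 -0.02) were not called. The higher count was 7 without Cre replicate 3 or Flpo replicate 4 and 6 without Flpo replicate 5. The list's summed level was 323 to 556 CPM in Cre and 523 to 699 in Flpo.

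Markers of other liver cells differed from list to list in how many were called. No member of 16 Kupffer cell markers was called in edgeR's fit (median 0.39), 2 were called higher without Flpo replicate 2 and 1 without Cre replicate 5, and 7 with limma on log2(TPM + 1). Adgre1, the F4/80 gene, stood at 3.86, 3.77, 4.33, 4.27 and 6.59 CPM in Cre and 3.37 to 12.2, median 7.29, in Flpo (log2 fold change 0.72, SE 0.25, adjusted p = 0.0630). Of 26 endothelial markers only the receptor gene Kdr was called (16.4 to 23.5 CPM in Cre and 9.83 to 15.8 in Flpo, log2 fold change -0.61, SE 0.14, adjusted p = 0.00695), and none on the log2(TPM + 1) scale. Of 15 lymphocyte and neutrophil markers only Cd4 was called (1.07, 0.898, 1.38, 5.47 and 3.41 CPM in Cre and 0.243 to 0.550, median 0.378, in Flpo, log2 fold change -2.60, SE 0.47, adjusted p = 0.00127), and Cre replicates 4 and 5 were the highest. Lipid-associated macrophage markers had 5 of 20 higher and 3 lower (on the log2(TPM + 1) scale 7 higher and 1 lower with a median of 0.38), and 2 or 3 higher in 12 of the 16 fits that left out a library, with 2 without Cre replicate 3 or Flpo replicate 4, 5 or 6. Cholangiocyte markers had 3 of 11 higher and 1 lower (median 0.51), with 1 to 3 higher in the fits that left out a library. Krt8 (log2 0.51), Spp1 (log2 0.71) and Pkhd1 (log2 0.64) were higher. Spp1 was called in only 8 of 27 alternatives and Pkhd1 in 9. The transcription factor gene Sox9 was lower, at 14.8, 11.9, 9.70, 8.42 and 14.4 CPM in Cre and 2.56 to 5.13, median 3.28, in Flpo (log2 fold change -1.68, SE 0.25, adjusted p = 2.96e-04). Hepatocyte identity genes had 2 of 20 higher and 2 lower (median -0.14, and 0.09 on the log2(TPM + 1) scale), and their summed level was 95769 to 116072 CPM in Cre and 84816 to 101151 in Flpo. Of 16 blood, pancreas and fat transcripts only 6 were tested, and none was called. They were Hba-a1, Hba-a2, Hbb-bs, Hbb-bt, Alas2 and Cela1. The fat transcripts Adipoq, Lep, Retn and Ucp1 fell below the filter, so none of fat was tested. The part of cell makeup in the results was not tested.

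Galectins and annexins, which bind sugars and membranes, were higher in 6 of 17 and lower in none (median 0.56). Anxa5 stood at 40.9, 43.2, 38.1, 42.1 and 50.7 CPM in Cre and 84.4 to 125, median 99.8, in Flpo (log2 fold change 1.23, SE 0.13, adjusted p = 1.28e-05), and Anxa2 at 6.76, 14.2, 6.75, 11.8 and 7.22 CPM in Cre and 19.3 to 25.3, median 23.8, in Flpo (log2 fold change 1.31, SE 0.19, adjusted p = 2.52e-04). Neither overlapped between the groups. Of 8 carbonic anhydrase genes, whose enzymes interconvert carbon dioxide and bicarbonate, 4 were higher and none lower (median 0.82). Car3 measured 458, 1119, 1311, 1500.0 and 129 CPM in Cre, with replicate 5 far under the rest, and 2934 to 4609, median 3777, in Flpo (log2 fold change 2.09, SE 0.45, adjusted p = 0.00595). Car5a, which encodes a mitochondrial form, measured 37.0, 33.9, 37.0, 52.5 and 24.3 CPM in Cre and 74.4 to 94.0, median 86.7, in Flpo (log2 fold change 1.20, SE 0.14, adjusted p = 3.98e-05).

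Hepatokine genes, which encode proteins secreted by the liver, had 4 of 26 higher in Flpo and 8 lower (median -0.31). The counts depended on scaling, with 9 higher and 4 lower with a median of -0.09 on the log2(TPM + 1) scale and 9 higher and 4 lower with a median of -0.18 by library totals. Enho, the adropin gene, stood at 66.3, 56.2, 38.2, 30.8 and 24.2 CPM in Cre and 4.61 to 13.9, median 9.39, in Flpo, with no overlap (log2 fold change -2.22, SE 0.33, adjusted p = 4.42e-04). Fst, the follistatin gene, was lower (log2 -2.57), with Cre libraries spread from 1.23 to 15.0 CPM, and its log2 fold change was -1.78 without Cre replicate 1. The lower count was 5 without Cre replicate 1 or 2 or Flpo replicate 4 or 5, and the higher count was 2 without Cre replicate 2 or 3 or Flpo replicate 3, 4, 5 or 6.

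Acute phase and IL-6 signalling genes split, 8 of 30 higher and 5 lower (median 0.06), with 10 higher and 2 lower with a median of 0.28 on the log2(TPM + 1) scale. Lcn2, which encodes the iron-binding protein lipocalin-2, stood at 9.62, 13.4, 8.36, 9.86 and 12.6 CPM in Cre and 30.1 to 76.5, median 50.9, in Flpo (log2 fold change 2.28, SE 0.22, adjusted p = 7.99e-06). Orm2, an acid glycoprotein gene, measured 4.22, 6.72, 6.71, 6.29 and 3.88 CPM in Cre and 13.6 to 32.9, median 21.7, in Flpo (log2 fold change 1.96, SE 0.26, adjusted p = 1.44e-04). Both were fully apart. The receptor gene Il6ra was higher by 0.92 and Saa2 by 1.38, while Serpina3k was lower (log2 -1.02), the feedback inhibitor gene Socs3 (log2 -1.43) and the fibrinogen genes Fga (log2 -0.56) and Fgg (log2 -0.60). The lower count was 3 without Cre replicate 1 or Flpo replicate 3.

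The unfolded protein and integrated stress response list had 3 of 31 higher and 6 lower (median -0.19), and 3 lower without Cre replicate 1. On the log2(TPM + 1) scale there were 4 higher and 3 lower with a median of 0.01. Atf5, a transcription factor gene of this response, stood at 1245, 791, 625, 764 and 913 CPM in Cre and 217 to 356, median 318, in Flpo (log2 fold change -1.49, SE 0.17, adjusted p = 2.67e-05). Asns, the asparagine synthetase gene, measured 35.7, 5.71, 10.1, 3.16 and 53.5 CPM in Cre, high in replicates 1 and 5, and 0.248 to 2.75, median 0.607, in Flpo (log2 fold change -4.47, SE 0.84, adjusted p = 0.00269). The groups did not overlap for either gene, and the log2 fold change of Asns was -3.80 without Cre replicate 5 and -5.11 without Flpo replicate 2. Psat1, of serine synthesis, was lower (log2 -2.07) and Atf4 (log2 -0.46), whereas Herpud1, of degradation at the endoplasmic reticulum, was higher by 1.15 and Dnajb9 by 0.57.

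Proteasome subunit genes were called lower in 11 of 31 tested and higher in none (median -0.25), but this depended on scaling: library totals alone called 4 lower, with a median of -0.11, and log2(TPM + 1) called 1, with a median of -0.04. Psmd4 stood at 119, 131, 128, 111 and 206 CPM in Cre, highest in replicate 5, and 76.5 to 99.5, median 87.5, in Flpo (log2 fold change -0.66, SE 0.13, adjusted p = 0.00307). Psmb4 was lower (log2 -0.41) and Psmc2 (log2 -0.42), and neither passed on the log2(TPM + 1) scale. Of 34 oxidative phosphorylation genes 2 (5.88%) were called higher, under the 7.45% of all genes, and none lower (median 0.12); library totals called 10 higher and log2(TPM + 1) 21. Sdha, a succinate dehydrogenase gene, was higher by 0.43 (326 to 384 CPM in Cre and 466 to 494 in Flpo). In the apoptosis and p53 list 2 of 24 were higher and 5 lower (median -0.17), and on the log2(TPM + 1) scale 3 higher and 1 lower with a median of 0.02. Trp53 itself was lower (log2 -0.39) and did not pass with library totals or log2(TPM + 1). The lower count was 2 without Cre replicate 2 and 3 without Cre replicate 3 or Flpo replicate 1 or 3.

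Zonation genes, which differ between the portal and the central end of the lobule, were called both ways, 3 higher and 3 lower in each list. Of 24 pericentral genes Glul, the glutamine synthetase gene, measured 598, 894, 911, 775 and 1040.2 CPM in Cre and 1153 to 1493, median 1368, in Flpo (log2 fold change 0.68, SE 0.12, adjusted p = 0.00137), and the ammonium transporter gene Rhbg was higher by 1.46, while Axin2, a target of Wnt signalling, was lower (log2 -0.98). The higher pericentral count was 6 without Cre replicate 4 or 5 and the lower count 1 without Cre replicate 2 or 3. The pericentral genes had 9 higher and 1 lower with a median of 0.44 on the log2(TPM + 1) scale and 7 higher and 3 lower with a median of 0.34 by library totals. Periportal genes had a median of -0.24, and on the log2(TPM + 1) scale 4 higher and 2 lower with a median of 0.12. Of 23 periportal genes Cdh1, the E-cadherin gene, measured 46.2, 34.4, 30, 19.3 and 45.2 CPM in Cre and 2.51 to 18.1, median 10.1, in Flpo (log2 fold change -1.80, SE 0.42, adjusted p = 0.00972), and Sfxn1 was higher by 0.45. Amino acid and one-carbon genes had 6 of 31 higher and 4 lower, against 15 higher and 2 lower with a median of 0.39 on the log2(TPM + 1) scale and 9 higher and 3 lower with a median of 0.32 by library totals. Cbs, the cystathionine synthase gene, was lower (log2 -1.0) and Got1 (log2 -1.80), with Got1 at 725, 131, 199, 98.2 and 721 CPM in Cre, high in replicates 1 and 5, and 85.5 to 136, median 109, in Flpo. Got1 lost its call with limma-voom (adjusted p = 0.0670), with the replicate block (0.0695) and on the log2(TPM + 1) scale (0.0810).

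Acyl-CoA thioesterase and carboxylesterase genes had 7 of 23 higher and 3 lower (median 0.33), among them Ces1g (log2 1.42) and Acot11 (log2 2.16) higher and Ces3b (log2 -0.96) lower. On the log2(TPM + 1) scale that list had 11 higher and 1 lower with a median of 0.51. Lysosome and autophagy genes had 6 of 25 higher and 4 lower (median 0.05), 10 higher and 0 lower with a median of 0.25 on the log2(TPM + 1) scale and 9 higher and 2 lower with a median of 0.17 by library totals. Sqstm1, an autophagy receptor gene, was lower (log2 -0.43). Lipoprotein genes had 3 of 25 higher and 4 lower, and on the log2(TPM + 1) scale 6 higher and 2 lower with a median of 0.18. Among them was Apoa1, the main apolipoprotein gene of high density lipoprotein, which stood at 15631, 13498, 12314, 9048 and 13762 CPM in Cre and 5402 to 7905, median 7094, in Flpo (log2 fold change -0.89, SE 0.14, adjusted p = 3.46e-04). The remaining lists had these counts: cholesterol synthesis had 1 higher and 1 lower of 24, interferon response 2 and 1 of 34, cytokines and chemokines 1 and 1 of 19, and cell cycle 3 and 2 of 27. On the log2(TPM + 1) scale these were, for interferon response, 5 higher and 0 lower with a median of 0.23, and for cell cycle 6 higher and 0 lower with a median of 0.20. Of the cytokine list Il18 was higher by 0.66, and Ccl2, the monocyte chemokine gene, did not pass (0.353 to 0.787 CPM in Cre, 0.365 to 1.36 in Flpo, adjusted p = 0.524).

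Of the 989 called genes with no overlap, 265 had a mean CPM of at least 1 and a GFP mean in between. That is, the GFP mean lay between 30% and 70% of the way from the Cre mean to the Flpo mean. How many of all genes tested lay in this window was not counted. By adjusted p, the first of these were Pdxk, Cryz, Adora1, Agxt2, Rbpms and Cadm4. Pdxk, which encodes the kinase that activates vitamin B6, measured 30, 31.0, 34.6, 40.1 and 24.0 CPM in Cre, 44.8 to 67.9 in GFP and 62.4 to 95.7, median 82.0, in Flpo (log2 fold change 1.36, SE 0.14, adjusted p = 1.28e-05). Against GFP it stood at -0.67 in Cre and 0.69 in Flpo on the log2 scale. Cryz, a quinone reductase gene, measured 55.8, 67.2, 63.0, 79.9 and 69.0 CPM in Cre, 84.4 to 111 in GFP and 107 to 131, median 125, in Flpo (log2 fold change 0.87, SE 0.09, adjusted p = 1.87e-05). Adora1, an adenosine receptor gene, was higher in Flpo than in Cre by 1.43 and Agxt2 by 0.78, whereas Rbpms was lower (log2 -0.79) and the cell adhesion gene Cadm4 (log2 -2.42). These are a description of genes chosen by where the GFP mean lies. Among the 6 no difference between Flpo and GFP passed edgeR's test (lowest adjusted p = 0.0998). Only 4 of all 13905 genes passed in that contrast, so this outcome is not particular to the 6.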

How the data were processed

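Bulk RNA was sequenced from 16 liver libraries, and the Flpo and Cre groups were taken from the sample titles. Values by gene symbol were deposited by the authors, estimated counts and TPM (transcripts scaled to a fixed total per library). Cutadapt, STAR and the mm10 build are named, without versions, per the submitters' processing notes. For the quantifier, its annotation and its strand setting, nothing is given in the sources used here. Among the count values 31.7% were not whole, and all were rounded. Of 55487 rows, 13905 passed edgeR's filterByExpr with a minimum count of 10. Counts were TMM-scaled, all 16 libraries were fitted together with edgeR 4.0.16 in R 4.3.3 (robust quasi-likelihood fit, one coefficient per group) and Flpo was contrasted with Cre, with Benjamini-Hochberg adjustment over all genes tested and a threshold of 0.05. The SE is the log2 fold change divided by the root of the F statistic. On simulated counts for 13905 genes, the test recovered 122 of 200 genes changed 2-fold (61%) in Flpo against Cre and made 6 false calls. Those counts were drawn independently for each gene from a negative binomial with the estimated dispersions. All other genes had equal means in the groups, and no library was set apart. In the data 1906 genes were called and some libraries stand apart, so these rates need not hold there.

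The 41 gene lists (973 symbols) and the members named were chosen with earlier results of these data known. Genes were named by rule: Mapk8 and Mapk9; among called genes of mean CPM of at least 1 without overlap, the 8 largest differences each way and the 6 smallest adjusted p; the 4 smallest p of each list; 6 genes with the GFP mean in between; and preset single genes. Some named genes are not reported here, and genes outside the rule are identified in the text. Positions are from GENCODE M21 on GRCm38 (13690 tested genes matched by symbol), and promoter windows from RefSeq. Alternatives were other scalings and filters, DESeq2 1.42.0, limma 3.58.1 (voom, and log2(TPM + 1)), Flpo and Cre libraries alone, a replicate block, a clock score as covariate, Mup genes left out, and each library left out.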

Additional observations from a re-analysis of the deposited data

Results flagged for a closer look

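Libraries were examined in 298 sets, taken from most of the printed genes and 5 library measures in Cre and in Flpo. The genes chosen later from Fitm1 to Dnajb9 were left out. In 19 sets (6.38%) the highest or lowest library stood farther from its neighbour than the critical share of the group's range. Chance alone gives about 1 in 20. Cre replicate 4 was such a library in Thrsp (21.1 CPM) and Per3 (8.15 CPM), on the first principal component (20.3) and in the clock score (-0.273). Each time it stood on the Flpo side of its group. Flpo replicate 1 was lowest in its group for Gsta3 (950 CPM), Per3 (11.5), Ciart (7.03) and Wee1 (8.93), on the Cre side. Cre replicate 5 was high for Insig2 (664 CPM), Psmd4 (206), Adgre1 (6.59) and Cidec (289) and low for Agxt2 (89.0). Cre replicate 1 was high for Tff3 (77.9 CPM) and low for Rhbg (2.11) and Clock (36.8). Among the Flpo libraries, replicate 4 was low for Atf5 (217 CPM), replicate 2 for Cyp2b9 (47.5) and replicate 3 for Col3a1 (16.5).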

How the results depend on the processing

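The number of genes called in Flpo against Cre was 1906. It was 881 at an adjusted p under 0.01, 582 with a fold of at least 2 required, and 32 with the clock score as a covariate, which nearly coincides with the group. The other alternatives stayed within 1.5 times: 1917 with RLE size factors, 2264 with library totals alone, 1505 without a low-count filter, 1916 with a CPM of at least 1 in 5 libraries, 2367 with DESeq2, 1765 with limma-voom, 1627 with only the Flpo and Cre libraries, 2743 with limma on log2(TPM + 1) and 1914 with Mup genes left out. Leaving out each library in turn gave 1458 to 2187, lowest without Flpo replicate 5 or 6 and highest without Cre replicate 4. Without Cre replicate 4 and Flpo replicate 1 together, an alternative chosen after seeing the data, it was 2151. With the replicate number as a block the count was 1352, against 1458 in the same libraries without the block. Similar totals do not mean the same genes. Of the 1906 calls, 99.9% recurred in the same direction with DESeq2 and 68.5% with the block. The share was 70.5% with limma on log2(TPM + 1), 76.5% without a low-count filter and 74.5% to 95.8% with 1 library left out. The 5 pairs of Cre and Flpo libraries with the same number did not deviate together (r across genes -0.156 to 0.0157). A weak pairing could go unseen in these values, so whether the numbers pair the samples is not known. The genes chosen later from Fitm1 to Dnajb9 were not followed singly through these refits. The other called genes given by the naming rule or chosen later numbered 180. Of these, 15 were called in every refit, 165 were not called with the clock score, 12 not with only 2 groups and 26 not in at least 1 fit without a library. Among the called genes so followed, Nr1i3 turned, at -0.073 with the clock score (adjusted p = 0.971). The uncalled genes Npas2, Ppara, Fasn, Jun, Cidec and Ddx3y, and the medians of several lists, also changed sign under at least 1 alternative. The causes of these differences were not tested. Depth ran from 27929400 to 36043300 counts and was highest in Flpo replicate 1. Among the Cre libraries it was highest in replicate 4, at 33720700. Genes below the filter were not tested.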
